A study of Mus musculus with 2 samples.

Results

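AP-1 and immediate early genes were described in aortic perivascular cells (PCs) of mice with and without Kai1, the tetraspanin gene Cd82. The members were 10 genes taken by name, with no threshold on their values: the Fos family genes Fos, Fosb, Fosl1 and Fosl2, the Jun family genes Jun, Junb and Jund, and the further immediate early genes Egr1, Ier2 and Ier3. All 10 were among the 20211 gene symbols measured. RNA was sequenced from 1 library of WT cells and 1 library of Kai1 KO cells, both from C57BL/6 aorta and grown in DMEM, for which the labels give 10% FBS and the study's culture methods a higher serum content. The study's methods describe adult mice of either sex, and the labels name no stimulation, time course or serum starvation of the cultures. The way the knockout allele was made was not given in the sources used here. The study sequenced these cells to find genes through which KAI1 restrains angiogenesis.

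AP-1 is a dimeric transcription factor in which a Jun protein pairs with a Fos protein, or with another Jun protein, through a leucine zipper. Fos proteins need a partner from another family to bind DNA well, whereas Jun proteins can also pair among themselves. Immediate early genes are transcribed soon after serum, growth factors or stress reach a cell, without the need for new protein, and many of their mRNAs are short-lived. In vascular mural cells Egr1 and AP-1 are known for their response to injury and growth factors.

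The signals that reach these genes act partly through short elements close to the start of transcription. The stretches below were read from mouse genome build NCBI37 (mm9), the build the reads were aligned to, and are shown because they hold the matches found in the 500 bases before the annotated start. The CArG box is the binding sequence of serum response factor, TGACGTCA is the cyclic AMP response element and TGACG its shorter core, TGACATCA is a variant of the AP-1 site, and GCGGGGGCG is an Egr1 binding sequence. Capitals mark the named match and, in the 3 stretches of Fos, Junb and Jun nearest to the start, the further matches named for it.
Fos, CArG box, chr12:86814516-86814555, plus strand: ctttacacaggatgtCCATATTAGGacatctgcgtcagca
Fosb, CArG box, chr7:19895642-19895681, minus strand: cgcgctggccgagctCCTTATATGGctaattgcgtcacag
Fos, TGACG and TATAAA, chr12:86814759-86814827, plus strand: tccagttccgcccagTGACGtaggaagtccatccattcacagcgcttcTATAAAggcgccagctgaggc
Junb, CCAAT and TATAAA, chr8:87502627-87502698, minus strand: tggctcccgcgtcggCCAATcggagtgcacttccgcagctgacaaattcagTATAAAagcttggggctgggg
Jun, CCAAT and TGACATCA, chr4:94718936-94718993, minus strand: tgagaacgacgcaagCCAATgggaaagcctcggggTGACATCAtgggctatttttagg
Ier2, TGACGTCA, chr8:87186774-87186811, minus strand: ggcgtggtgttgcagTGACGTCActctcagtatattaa
Fosl2, GCGGGGGCG, chr5:32438751-32438789, plus strand: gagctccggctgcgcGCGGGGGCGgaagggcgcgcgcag
Fosl1, TGACG on the opposite strand, chr19:5447562-5447660, plus strand: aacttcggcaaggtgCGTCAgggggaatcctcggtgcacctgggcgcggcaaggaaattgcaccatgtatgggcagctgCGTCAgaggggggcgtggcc

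Both strands of every promoter were searched. A CArG box lay in the promoters of Fos, 309 bases before the start, of Fosb, 272 bases before it, and of Egr1, which held 5 of them. It was present in 2.67% of 22232 promoters of protein-coding genes of the same length, against 3 of the 10 members. The TGACG core was far more common, in 27.9% of all promoters and in 7 of the 10 members, namely Fos, Fosb, Fosl1, Jun, Junb, Egr1 and Ier2. The full TGACGTCA, which contains the core, was found in Ier2 alone of the members and in 2.28% of all promoters. TGACATCA stood in the Jun promoter, 45 bases before the start, and in 3.86% of all promoters. GCGGGGGCG was found in Fosb and Fosl2 and in 4.17% of all promoters. TGANTCA was present in Fos only of the members and in 12.0% of all promoters. This pattern takes in the AP-1 site but is wider, since any base is allowed at N. TATAAA was present in Fos, Fosl1 and Junb and in 24.2% of all promoters, and CCAAT in Jun, Junb, Egr1 and Ier3 and in 53.2%. The TATAAA matches of Fos and Junb lay 33 and 30 bases before the start. That of Fosl1 lay 288 bases before it, on the opposite strand. Among the 9525 promoters of the genes kept the shares were 2.38% for the CArG box, 37.9% for TGACG, 3.15% for TGACGTCA, 1.97% for TGACATCA, 6.03% for GCGGGGGCG, 9.50% for TGANTCA, 15.4% for TATAAA and 52.4% for CCAAT. Jund held none of these sequences in this window. These are matches of letters, and binding was not measured.

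The other end of the mRNA was searched as well. ATTTA, the core of the AU-rich elements that shorten the life of many mRNAs, occurred after the stop codon in 9 of the 10 members, against 68.3% of 9038 expressed genes. Ier3 held 5 copies within 613 bases, Fos 4 within 815 bases, Jun 4 within 1233 bases and Fosl2 8 within 4642 bases, whereas Ier2 held 0 and Fosb 1 within 2120 bases. The median density was 1.80 per kilobase over the members and 1.24 over the expressed genes. On build NCBI37, Jun (chr4:94715725-94718913), Junb (chr8:87500811-87502617), Jund (chr8:73221638-73224515) and Ier2 (chr8:87185230-87186751) have 1 exon each. Ier3 (chr17:35958629-35959868) and Egr1 (chr18:35020861-35024638) have 2 exons. Fos (chr12:86814840-86818223), Fosb (chr7:19888070-19895394), Fosl1 (chr19:5447703-5455945) and Fosl2 (chr5:32438845-32460204) share a structure of 4 exons.

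Levels are given in RPKM, reads scaled to transcript length and to the mapped reads of the library, so that levels of different genes can be compared. The difference between genotypes is the log2 ratio of Kai1 KO to WT after 0.1 was added to each RPKM, and the 10068 genes whose 2 values averaged 1 RPKM or more are called the genes kept. No replicates exist, so no test was made and no p-value is given, and any difference includes that between animals, cultures and library preparations. The intervals printed are 95% counting intervals from reads estimated out of the RPKM values, about 29550000 reads for WT and 26600000 for Kai1 KO, and they cover counting error only. In such bulk RNA, fewer cells of a type and less RNA per cell cannot be told apart.

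Fosb averaged less than 1 RPKM, and none of the other 9 members differed by more than 2-fold in either direction. Among the genes kept, values past 2-fold were lower in the Kai1 KO library for 7.81% and higher for 7.98%, or 786 and 803 genes. These were 1856 and 278 genes when both libraries were scaled to Gapdh, a glycolytic gene at 4238 RPKM for WT and 5997 RPKM for Kai1 KO, and 977 and 594 when their upper quartiles were made equal. Under scaling to Gapdh 2 of these 9 members, Fosl2 and Egr1, were more than 2-fold lower, and so was Fosb (-1.05). The sum of all listed RPKM values was 885190 for WT and 1238890 for Kai1 KO. Making these sums equal would lower every ratio by nearly as much as scaling to Gapdh did, and the ratios were not recomputed that way. Over all 10 members, without rescaling, 6 had a negative and 4 a positive log2 ratio, or 5 and 4 of the 9. Of the 10068 genes kept, 4522 had a negative and 5546 a positive ratio. The values of the members ran from -0.77 for Fosb to 0.80 for Fosl1. The median over the 9 members was -0.45, against 0.08 over the genes kept, and the median of the absolute values was 0.47 against 0.43. The 9 values left a gap between -0.45 and 0.25, so the median sat at the edge of the negative group. In the same libraries the targeted gene Cd82 stood at 12.8 RPKM for WT and 2.62 for Kai1 KO, a log2 ratio of -2.25.

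**Figure D1:**
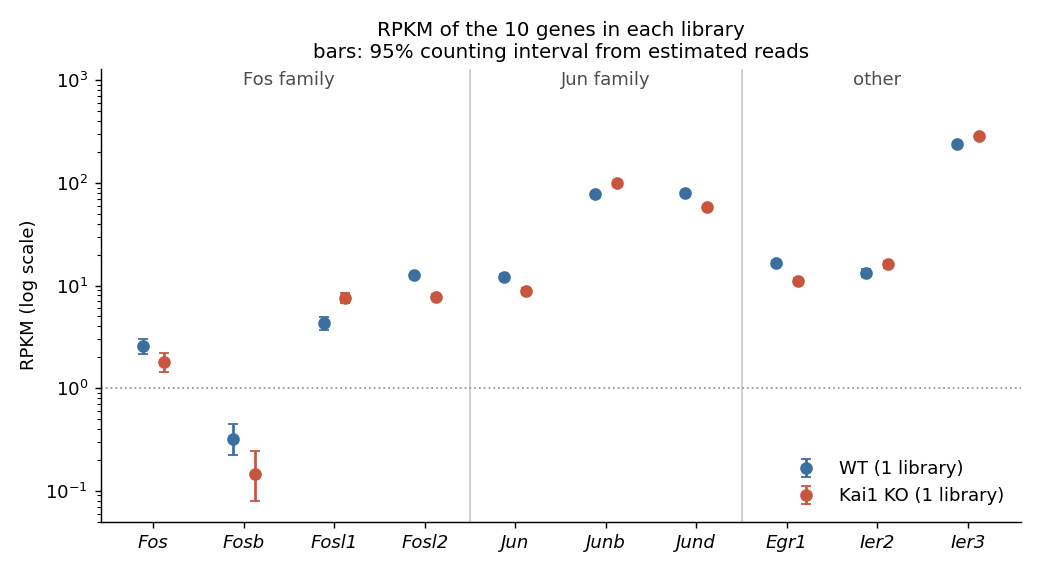
RPKM of the 10 genes (log axis) for WT (blue) and Kai1 KO (red), with 1 library per genotype, bars for the 95% counting interval and a dotted line at an RPKM of 1. Ier3 was highest at 240 and 285, Junb and Jund followed, and Fosb alone lay below 1 in both libraries.

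Within the Fos family the genes of the Fra proteins, which are typically induced later than Fos, were the most abundant, and they differed in opposite directions. Fosl2, which encodes Fra-2, measured 12.7 RPKM in WT PCs against 7.77 RPKM in Kai1 KO PCs, or 61.2% of the WT value with a counting interval from 56.9% to 65.7%. Its log2 ratio was -0.70, or -1.20 when scaled to Gapdh, and 13.2% of the genes kept had a lower ratio than -0.70. Fosl1, which encodes Fra-1, measured 4.29 RPKM in WT PCs against 7.52 RPKM in Kai1 KO PCs, or 175% of WT with an interval from 146% to 211%. Its log2 ratio was 0.80, above 87.0% of the genes kept, and fell to 0.30 when scaled to Gapdh. Fosl1 thus had the highest ratio of the members and Fosl2 the lowest of the 9 among the genes kept.

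The classical member Fos and its close relative Fosb were expressed at low levels. Fos measured 2.55 RPKM in WT PCs against 1.78 RPKM in Kai1 KO PCs, from about 144 and 90 reads, with a log2 ratio of -0.50 and an interval from -0.87 to -0.12. Only 19.4% of the genes kept had a lower RPKM than Fos for WT and 12.8% for Kai1 KO. Fosb measured 0.321 RPKM in WT PCs against 0.146 RPKM in Kai1 KO PCs, from about 34 and 14 reads. Its log2 ratio of -0.77 had the widest interval of the members, from -1.29 to -0.15, and with 0.01 in place of 0.1 added it was -1.08, past 2-fold, whereas with 1 added it was -0.20.

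The make-up of the Fos family in RPKM is the same however the 2 libraries are scaled to each other, but it depends on the correction for transcript length. The summed RPKM of the family was 19.9 in WT PCs and 17.2 in Kai1 KO PCs. Fosl2 made up 64.0% of this sum in WT PCs and 45.1% in Kai1 KO PCs, and Fosl1 21.6% and 43.7%. As shares of estimated reads, with no such correction, Fosl2 made up 85.2% and 74.3%, and Fosl1 7.66% and 19.1%. In RPKM, Fos contributed 12.8% and 10.3%, and Fosb 1.62% and 0.851%. The ratio of Fosl1 to Fosl2 was 0.337 in WT PCs and 0.967 in Kai1 KO PCs, a 2.87-fold difference with a counting interval from 2.36 to 3.48. In the Kai1 KO library the counting intervals of Fosl1 and Fosl2 overlapped, whereas in the WT library they did not.

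**Figure D2:**
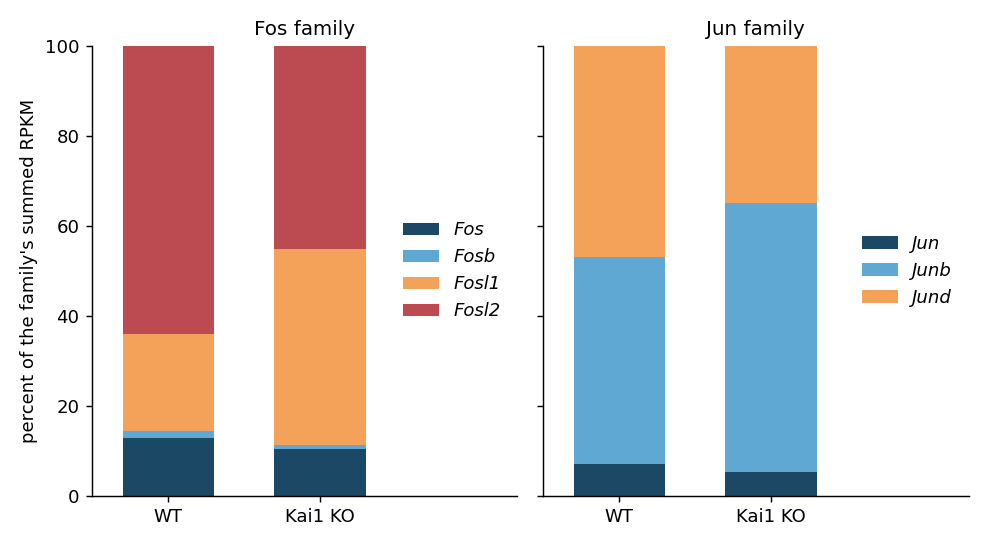
Percent of the summed RPKM of the Fos family (left) and the Jun family (right) that each gene contributed in each genotype. Fosl1 took 21.6% and 43.7% of the Fos family sum, and Junb 46.0% and 59.8% of the Jun family sum.

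The Jun family stood far above the Fos family in both libraries. Its summed RPKM was 171 in WT PCs and 166 in Kai1 KO PCs, or 8.60 times and 9.62 times the Fos family sum. Jund, a Jun gene that is typically expressed without stimulation, measured 80.0 RPKM in WT PCs against 57.7 RPKM in Kai1 KO PCs, 72.1% of WT with an interval from 69.3% to 75.0% and a log2 ratio of -0.47. Junb, an inducible member that can oppose Jun at some targets, measured 78.6 RPKM in WT PCs against 99.0 RPKM in Kai1 KO PCs, 126% of WT with an interval from 120% to 132%. The log2 ratio of Junb was 0.33, which became -0.17 when both libraries were scaled to Gapdh. Jun, the founding member, measured 12.2 RPKM in WT PCs against 8.88 RPKM in Kai1 KO PCs, with a log2 ratio of -0.45 and an interval from -0.59 to -0.31.

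The order of Junb and Jund differed between the libraries. In WT PCs the 2 genes were level within their counting intervals, at a Junb to Jund ratio of 0.982. In Kai1 KO PCs the ratio was 1.72, and the fold difference between the 2 ratios was 1.75, with an interval from 1.65 to 1.85. Junb made up 46.0% of the Jun family sum in WT PCs and 59.8% in Kai1 KO PCs, Jund 46.9% and 34.8%, and Jun 7.12% and 5.36%. The ratio of Junb to Jun was 6.46 and 11.1. The ratio of Junb to each of the other Jun genes was therefore higher in the Kai1 KO library, under any scaling.

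Of the members outside AP-1, Egr1 had the lower value in the Kai1 KO library and the Ier genes the higher, the latter reversed when both libraries were scaled to Gapdh. Egr1, a zinc finger transcription factor, measured 16.6 RPKM in WT PCs against 11.1 RPKM in Kai1 KO PCs, with a log2 ratio of -0.57 and an interval from -0.69 to -0.45, or a ratio of -1.07 when scaled to Gapdh. Ier2, an intronless gene induced by growth factors, measured 13.3 RPKM in WT PCs against 16.0 RPKM in Kai1 KO PCs, with a log2 ratio of 0.27 and an interval from 0.10 to 0.45. Ier3, also called IEX-1, which takes part in cell survival, was the most abundant member, at 240 RPKM for WT and 285 RPKM for Kai1 KO. Its log2 ratio was 0.25, with an interval from 0.20 to 0.30, and its level exceeded that of 95.8% of the genes kept for WT and 95.9% for Kai1 KO. Scaled to Gapdh, the ratio of Ier2 was -0.23 and that of Ier3 -0.25. Ier3 and Ier2 kept their ratio to each other, at 18.1 in WT PCs and 17.8 in Kai1 KO PCs.

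**Figure D3:**
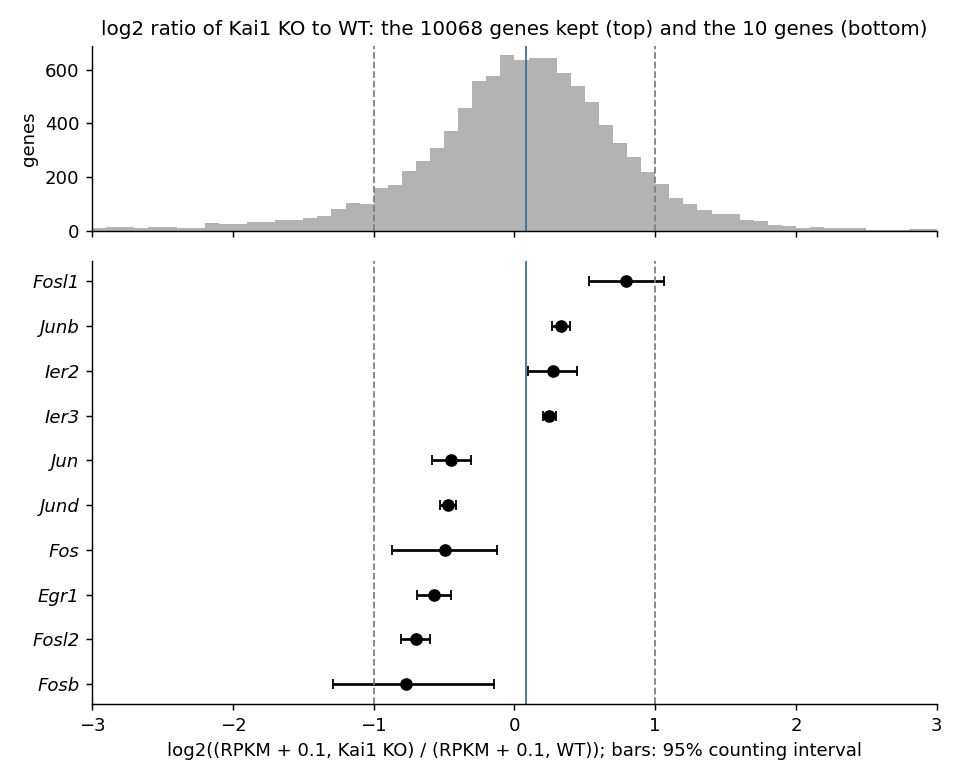
Log2 ratio of Kai1 KO to WT for the 10068 genes kept, as a histogram cut at -3 and 3 (top), and for each of the 10 genes with its 95% counting interval (bottom). Dashed lines mark 2-fold and the blue line the median of the genes kept, 0.08, and the 10 points lie between -0.77 and 0.80.

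From highest to lowest, the order in the WT library was Ier3, Jund, Junb, Egr1, Ier2, Fosl2, Jun, Fosl1, Fos and Fosb. The counting intervals of Jund and Junb, of Ier2 and Fosl2, and of Fosl2 and Jun overlapped. In the Kai1 KO library the order was Ier3, Junb, Jund, Ier2, Egr1, Jun, Fosl2, Fosl1, Fos and Fosb, and among neighbours the intervals of Fosl2 and Fosl1 alone overlapped. The first place of Ier3 and the last places of Fos and Fosb were common to both libraries.

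Genes around the members were taken from lists chosen with earlier results of these data known, and 4 genes stood on 2 lists. Counts past 2-fold are read beside the 7.81% and 7.98% above. Counts of negative ratios are read beside the 4522 negative and 5546 positive ratios among the genes kept. Of 19 bZIP partners that can dimerise with AP-1 proteins or compete with them, 13 were among the genes kept, with 1 more than 2-fold lower, 1 more than 2-fold higher and a median log2 ratio of -0.31. Maf, a large Maf factor, measured 3.04 RPKM in WT PCs against 0.304 RPKM in Kai1 KO PCs (-2.96). Nfil3, a bZIP repressor, had an RPKM of 10.7 and 22.1 (1.04). Jdp2, which represses AP-1 as a partner of Jun, had an RPKM of 63.6 and 51.6 (-0.30). Atf3, a stress-induced bZIP gene, was barely expressed, at 0.285 and 0.295. Batf3, a Jun partner known from dendritic cells, had an RPKM of 0.199 and 1.25, from about 3 and 17 reads, so that its fold is poorly determined, at 628% of WT with an interval from 182% to 3345%.

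Among 21 other immediate early transcription factors, 17 were kept, 12 with a negative log2 ratio, with 1 more than 2-fold lower, 2 more than 2-fold higher and a median of -0.58. Klf2, a Krüppel-like factor, measured 13.4 RPKM in WT PCs against 5.45 RPKM in Kai1 KO PCs (-1.29). Ier5l had an RPKM of 24.6 and 55.9 (1.18). Egr3 had an RPKM of 0.723 and 1.73 (1.15) from about 26 and 56 reads, and Egr2 one of 0.586 and 0.609, so that Egr1 was the only Egr gene of these 3 above an RPKM of 2 in either library. Nr4a1, an orphan nuclear receptor induced by growth factors, had an RPKM of 6.05 and 3.88 (-0.63).

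The immediate early genes that encode other kinds of protein held more values past 2-fold. Of 31 such effectors, 29 were kept, and 8 of them, 27.6%, lay more than 2-fold below WT and 1 lay that far above it, with a median log2 ratio of -0.53. Thbs1, which encodes the angiogenesis inhibitor thrombospondin-1, measured 818 RPKM in WT PCs against 185 RPKM in Kai1 KO PCs (-2.14). Gadd45a, a growth arrest gene, had an RPKM of 7.70 and 1.68 (-2.13), and Pim1, a kinase gene, one of 13.0 and 3.11 (-2.03). The gene with the higher value was Sgk1, a serum-induced kinase gene, at 31.2 and 82.9 (1.41). Zfp36, whose product binds AU-rich mRNA and shortens its life, had an RPKM of 7.90 and 5.03 (-0.64).

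**Figure D4:**
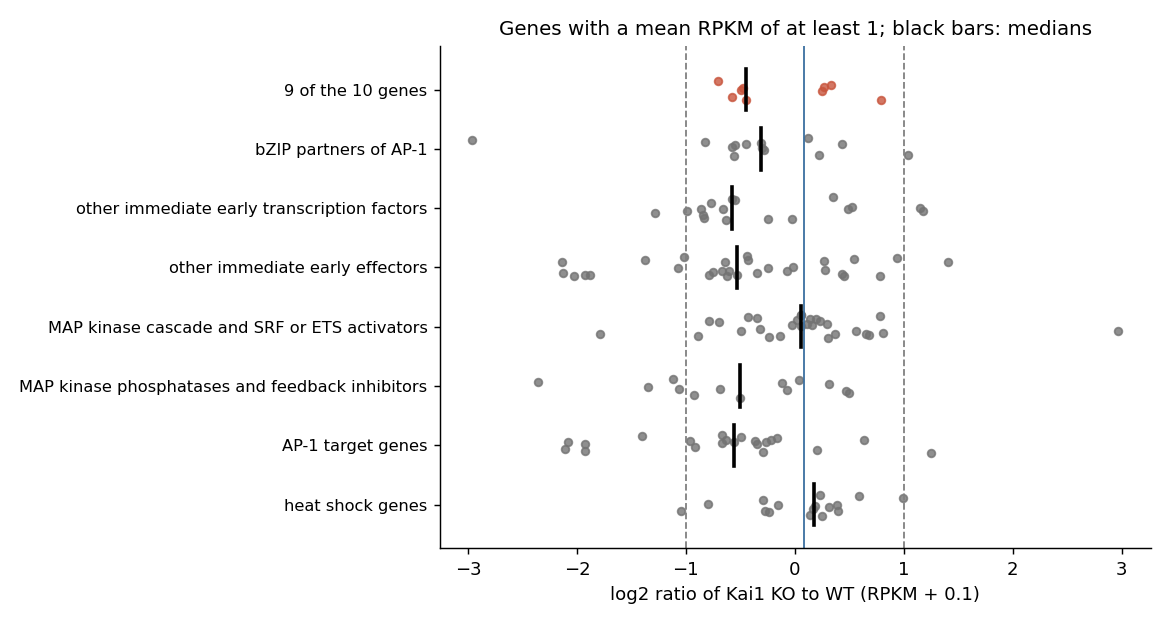
Log2 ratio of Kai1 KO to WT for the members (red) and for 7 gene lists (grey), each point 1 of the genes kept, black bars for medians, dashed lines for 2-fold and a blue line for the median of the genes kept. The members stay inside the 2-fold lines, whereas 8 of 29 effectors and 4 of 13 feedback inhibitors lie below the lower line.

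Upstream of the members, the list of MAP kinase cascade genes and the factors it activates at CArG boxes had a median near that of the genes kept. Of 32 genes, 29 were kept, with 1 more than 2-fold lower, 1 more than 2-fold higher and a median log2 ratio of 0.06, or 0.12 over those averaging 5 RPKM or more. Srf, the serum response factor gene, measured 11.3 RPKM in WT PCs against 12.9 RPKM in Kai1 KO PCs (0.19). The 2 genes past 2-fold were Mapk13, which encodes p38 delta, at 59.0 and 17.0 (-1.79), and Rps6ka4, which encodes the nuclear kinase MSK2, at 63.4 and 496 (2.97). Of 16 genes for MAP kinase phosphatases and feedback inhibitors, which immediate early signalling itself induces, 13 were kept, and 4 of them, 30.8%, lay more than 2-fold below WT and 0 lay that far above it, with a median log2 ratio of -0.50, or -0.31 over those averaging 5 RPKM or more. Spry1, an inhibitor of Ras and ERK signalling, had an RPKM of 6.50 and 1.19 (-2.35), Spry2 one of 6.19 and 2.37 (-1.35) and Spred1 one of 3.95 and 1.77 (-1.12). Dusp1, a phosphatase for JNK, p38 and ERK, had an RPKM of 45.0 and 21.5 (-1.07).

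Downstream, 26 genes known as targets of AP-1 were listed. Of the 21 kept, 18 had a negative log2 ratio, 5 were more than 2-fold lower, or 23.8%, and 1 was more than 2-fold higher, with a median of -0.56, or -0.36 over those averaging 5 RPKM or more. Ereg, a ligand of the EGF receptor, measured 3.70 RPKM in WT PCs against 0.779 RPKM in Kai1 KO PCs (-2.11). Hmox1, heme oxygenase-1, had an RPKM of 158 and 37.4 (-2.08), and Il6 one of 5.11 and 1.27 (-1.93). Lif, the gene of the cytokine leukemia inhibitory factor, had an RPKM of 2.95 and 1.05 (-1.40). The chemokine gene Cxcl1 had the opposite difference, at 64.6 and 154 (1.25). Heat shock genes, only some of which handling stress also induces, were measured beside these lists. All 16 were kept, with a median log2 ratio of 0.18, 1 more than 2-fold lower, Hsf2 (-1.04), and 0 more than 2-fold higher.

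Other features of the libraries differed together with these values, and their part in them was not tested. Ribosomal protein genes made up 34.4% of the summed RPKM for WT and 45.2% for Kai1 KO. The labelled cell type was checked against 12 mural markers, whose summed RPKM was 4646 for WT and 2978 for Kai1 KO. Most of this sum was Acta2, at 3823 and 2580. Acta2, Tagln, Cnn1, Pdgfrb and Cspg4 were well expressed, whereas the pericyte markers Rgs5, Kcnj8 and Abcc9 stayed below an RPKM of 1 in both libraries, and 4 of the 7 markers kept were more than 2-fold lower in the Kai1 KO library. The 10 fibroblast markers summed to 3443 and 1878, with 4 of 8 kept more than 2-fold lower and 1, Cd34, more than 2-fold higher at 1.44 and 7.76 RPKM. The 12 macrophage markers summed to 39.1 and 9.42, with 4 of 4 kept more than 2-fold lower, while Adgre1 and Aif1 were at 0 in both. The 12 endothelial markers summed to 43.3 and 21.4, nearly all of it Eng, and 4 of them were at 0 in WT PCs and 11 in Kai1 KO PCs. The Y-linked genes Ddx3y, Eif2s3y, Kdm5d and Uty ran from 0.479 to 6.56 RPKM for WT and were all listed at 0 for Kai1 KO, so that sex and genotype cannot be told apart.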

How the data were processed

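Per the study's methods, the authors aligned the reads to mm9 (NCBI37) with TopHat 2.0.9 and Bowtie, measured RefSeq genes in RPKM and tested differences with Cuffdiff, and the submitters' processing notes also name Cufflinks. The authors deposited RPKM values, 1 per gene and library. Rows with no gene symbol (38) were dropped, and the values of 153 symbols listed more than once were averaged. Members and lists were chosen with earlier results of these data known. The genes named beside the members were 12 set by name and, in each list other than cell type markers, up to 3 genes in each direction with the largest log2 ratio past 2-fold among the genes kept. List symbols absent from the tables were matched through RefSeq synonyms (GRCm38.p6).

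Reads were estimated from genes with 1 transcript of over 800 bases in GENCODE M1: RPKM was multiplied by the length less 200 bases and fitted to whole reads below 8, and 80.7% and 80.9% of the low values for WT and Kai1 KO came within 0.15 of a whole number. Counts per gene use the longest transcript and are approximate. Intervals are exact (Clopper-Pearson for ratios of libraries, Poisson for levels), except for ratios between pairs of members, which use a normal approximation. Promoters and 3′ parts came from the NCBI37 genome and GENCODE M1. The read estimate and the 2-fold calls were tested on simulated counts, and the other steps were not. Alternatives were other pseudocounts, filters, scalings and the highest row of repeated symbols. Python 3.11.15, numpy 2.4.6, pandas 2.3.3, scipy 1.17.1 and matplotlib 3.10.9 were used.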

Additional observations from a re-analysis of the deposited data

How the results depend on the processing

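No paired analysis was possible because WT and Kai1 KO cells gave a single library each, so that no replicate could be left out either. Each move of a log2 ratio was set against the average distance from the ratio to the ends of its counting interval. Of 60 recomputed log2 ratios of the members, 43 moved by less than that and 17 moved further. The 43 include the setting with the highest row of repeated symbols, which left the ratio of every member unchanged and so says nothing about stability. Among the 60, 3 changed sign, those of Junb, Ier2 and Ier3 under scaling to Gapdh. That scaling moved the median of the genes kept from 0.08 to -0.41 and that of the members to -0.94. It left 2 of the 9 members among the genes kept more than 2-fold lower, Fosl2 (-1.20) and Egr1 (-1.07), and also Fosb (-1.05). It put 1856 genes kept more than 2-fold lower and 278 higher, in place of 786 and 803. It also turned the medians of the MAP kinase list (-0.44) and the heat shock list (-0.32) negative. The upper quartile made equal gave 977 lower and 594 higher, a median of 0 gave 904 and 657. With no filter on the average RPKM the counts were 1878 lower and 1205 higher, and from an average of 5 RPKM up they were 350 and 511. With that stricter filter the median of the members was -0.10, since Fos left the list and the 8 genes that remained were split evenly by sign. As a share of summed estimated reads, which favours long transcripts, Fosl1 made up 7.66% of the Fos family in WT PCs and 19.1% in Kai1 KO PCs, and Junb 33.5% and 46.8% of the Jun family. Depth limits Fosb and Fos most, with about 14 and 90 reads in the Kai1 KO library.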
